A study of Arabidopsis thaliana with 2 samples.

Results

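PDF1.2A, PDF1.2B, JAZ7, ORA47, ORA59, JMT and THI2.1 are genes of the jasmonate and ethylene branch of plant defence, and their transcripts were followed by comparing the csb3 mutant with wild-type Col-0 in whole plants. They are 7 genes read by 7 of the 22810 probe sets of the Affymetrix ATH1 array, chosen by name and found by gene code. Both groups were 5-week-old plants of the Columbia background, grown under 10 h of light and 14 h of dark, and the labels name no treatment. csb3 (constitutive subtilisin3) is an Arabidopsis mutant with enhanced disease resistance. It was isolated in a screen for constitutive activity of a tomato subtilase promoter, and it is affected in HDS, an enzyme of the plastid isoprenoid pathway. HDS itself has no probe set named here, so its transcript was not read. The genotype was not checked on the arrays. The values are those of 1 array per genotype. There is therefore no replicate check, no p-value, and no way to tell plant-to-plant variation from an effect of genotype. The study's design text speaks of 5 plants, and whether they were pooled for an array is not stated.

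Jasmonate is a lipid-derived hormone made after wounding or attack. Its conjugate with isoleucine binds the receptor COI1, which removes JAZ repressors and frees transcription factors. With ethylene, jasmonate acts through ERF-type factors such as ORA59 on defensin genes, and without ethylene it acts mainly through MYC factors. Salicylic acid and jasmonate signalling are known to antagonise each other in Arabidopsis leaves, and PDF1.2 is the usual marker of the jasmonate and ethylene side.

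The deposited values are MAS5 signals, a linear intensity per probe set that the authors scaled to the same trimmed mean on both arrays. Any signal under 50 was raised to 50 ahead of the csb3 to Col-0 ratio. Where only 1 of both signals was so raised, the true difference can be larger, and the fold is given with the words at least. A ratio of 2-fold or more counted as a call, lower or higher in csb3. Of the 7 genes, 4 had signals of 50 or more on both arrays, 2 on 1 array only and 1 on neither. Probe sets of the same gene differed by an SD of 0.65 in a single log2 ratio (45 genes). That is a spread within the pair of arrays, not between plants, and a median-based estimate of it was 0.86.

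Of the 7 genes, 4 were called lower in csb3 and none was called higher. Across all probe sets, 2.74% were called lower and 4.56% higher. By raw signal alone, with no floor, 6 of the 7 were lower in csb3 and 1, ORA59, was higher. The share of all probe sets with a lower raw signal in csb3 is not given, so nothing is read from this count. At 2-fold without a floor, 3559 probe sets were lower and 2698 higher. The 6 include JMT, with a csb3 signal of 17.5, and THI2.1, with both signals below 50. Of the 7, 6 also stand in the study's own list of changed genes, made from these same signals, so their count is not independent evidence of a direction. THI2.1 is the one that does not. At 4-fold, 3 of the 7 were lower, where 0.263% of all probe sets were lower and 0.886% higher.

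**Figure D1:**
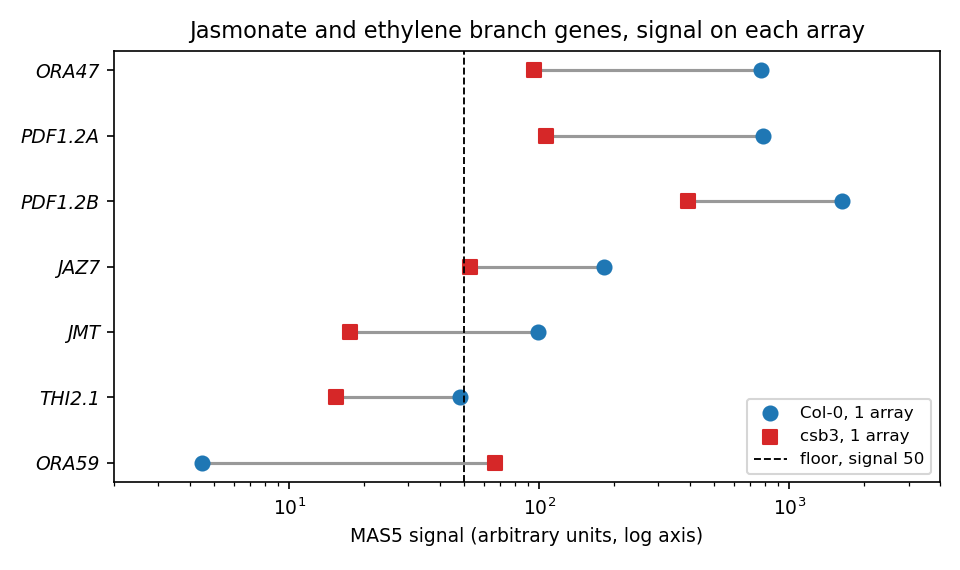
MAS5 signal (log axis) of the 7 genes on the Col-0 array (blue circles) and on the csb3 array (red squares), 1 array each, with the floor of 50 as a dashed line. In csb3, 6 genes lie to the left of their Col-0 signal, and ORA59 lies to the right, from 4.5 to 66.3.

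Among the transcription factors, ORA47 was lower in csb3 and ORA59 had the higher signal there. ORA47 (AT1G74930) encodes an AP2-domain factor that activates genes of jasmonate synthesis. Its signal was 768.6 in Col-0 against 95.8 in csb3, which differ 8.02-fold. The csb3 signal was 12.5% of the Col-0 signal. The log2 ratio of -3.0 was 4.63 times the spread between probe sets of the same gene, or 3.49 times its median-based estimate. Only 14 of the 12540 probe sets that reached 50 on both arrays, ORA47 included, were as low or lower in csb3 by this ratio.

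ORA59 (AT1G06160) encodes the ERF-type factor on which jasmonate and ethylene converge, and which binds the GCC box of defensin promoters. Its signal was 4.5 in Col-0 against 66.3 in csb3. Since the Col-0 signal lies below 50, ORA59 was at least 1.33-fold higher in csb3, short of the 2-fold rule. Its value depends on the floor: with a floor of 20 the log2 ratio was 1.73, a lower bound that passes 2-fold, and with a floor of 100 both signals were below it. ORA59 is named only through the study's list of changed genes. That it differed was therefore fixed by the way it was named.

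JAZ7 (AT2G34600) encodes a member of the JAZ family of repressors. Its signal was 182.3 in Col-0 against 52.8 in csb3, which differ 3.45-fold with a log2 ratio of -1.79. The log2 ratio of JAZ7 was 2.76 times the spread between probe sets of the same gene, or 2.08 times the median-based estimate. The csb3 signal lies just above the floor of 50. With a floor of 100 the log2 ratio was -0.87, short of 2-fold. JAZ7 is also named only through the study's list. None of the other 14 listed genes of the jasmonate receptor, its repressors and their partners had a named probe set, so JAZ7 cannot be set beside its family.

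JMT (AT1G19640) encodes the methyltransferase that turns jasmonic acid into volatile methyl jasmonate. Its signal was 99.2 in Col-0 against 17.5 in csb3. JMT was at least 1.98-fold lower in csb3, a bound that misses 2-fold because the csb3 signal was raised to 50. With a floor of 20 its log2 ratio was -2.31, again a bound.

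Of the 3 outputs among the 7 genes, both defensins were lower in csb3, and the thionin THI2.1 was too dim for a call. PDF1.2A (AT5G44420) encodes a small secreted antifungal defensin. Its signal was 782.0 in Col-0 against 106.2 in csb3, which differ 7.36-fold. The log2 ratio of -2.88 was 4.44 times the spread between probe sets of the same gene, or 3.35 times its median-based estimate. The ratio ranked 16 of 12540 from the lowest.

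PDF1.2B (AT2G26020) encodes a defensin closely similar to PDF1.2A. Its signal was 1626.3 in Col-0 against 394.8 in csb3, which differ 4.12-fold with a log2 ratio of -2.04, and its ratio ranked 48 of 12540 from the lowest. The log2 ratio of PDF1.2B was 3.15 times the spread between probe sets of the same gene, or 2.38 times the median-based estimate. The x in the name of its probe set marks probes that also match other transcripts. PDF1.2A and PDF1.2B may thus be read in part from the same transcripts, and they are not taken as independent measurements. PDF1.2C, the gene next to PDF1.2A, and PDF1.3, the gene next to PDF1.2B, had no named probe set.

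THI2.1 (AT1G72260) encodes a thionin, a cysteine-rich antimicrobial peptide induced by jasmonate. Its signal was 48.4 in Col-0 against 15.4 in csb3. Both lie below 50, so no fold is given. With a floor of 20 the csb3 signal was still below it, and the log2 ratio was -1.28 as a bound.

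The 4 genes measured on both arrays had log2 ratios from -3.0 in ORA47 to -1.79 in JAZ7, with a median of -2.46. Over all probe sets measured on both arrays the median was 0.08. All 4 genes stand in the study's list of changed genes, made from these same signals. The distance between the medians is therefore not independent evidence. In order of their ratios the genes were ORA47, PDF1.2A, PDF1.2B and JAZ7. Neighbours in this order differed by 0.12, 0.84 and 0.25 in log2, each within the 0.92 expected for a difference between probe sets from their spread. ORA47 differed from PDF1.2B by 0.96 and from JAZ7 by 1.22, and PDF1.2A from JAZ7 by 1.09, each a little more than that spread. The median-based estimate gives 1.22 for a difference, which puts 0.96 and 1.09 within the spread and the 1.22 between ORA47 and JAZ7 at its edge.

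The share of probe sets called lower varied with signal. For PDF1.2A and ORA47, with geometric means of 288 and 271 over both arrays, the share among probe sets of 200 to 400 was 3.39%. For PDF1.2B, at 801, the share among those of 800 or more was 6.89%. For JAZ7, at 98.1, the share among those of 50 to 100 was 2.04%.

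**Figure D2:**
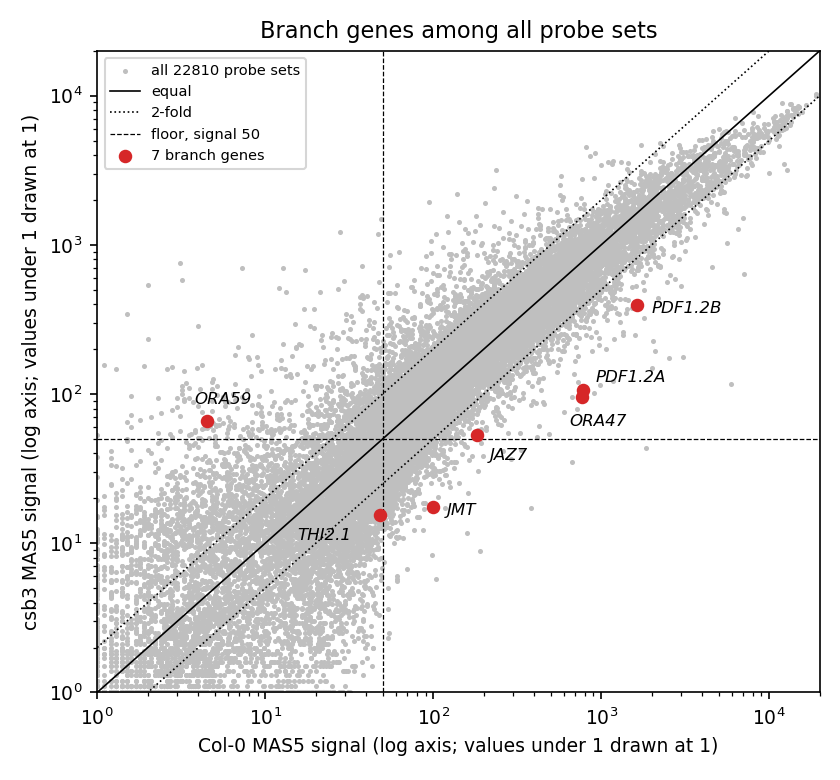
MAS5 signal in csb3 against that in Col-0 (both axes log) for all 22810 probe sets (grey) and for the 7 genes (red), with lines for equal signals, for 2-fold and for the floor of 50. ORA47, PDF1.2A, PDF1.2B and JAZ7 lie below the lower 2-fold line with both signals above the floor, and ORA59 lies far above the line of equal signals with its Col-0 signal below the floor.

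Other genes of both hormone pathways were taken from 13 lists with 152 loci in all, of which 39 have a named probe set. Of the 39, 13 were called higher and 3 lower in csb3, 13 were neither and 10 were below 50 on both arrays. Of these 39, 8 are named only through the study's list of changed genes. Among the 31 named by the probe annotation, 6 were higher (19.4%) and 3 lower (9.68%). Among all 13433 probe sets named that way, 3.58% were higher and 2.64% lower. The lists were chosen with earlier results of these data known, so the difference between these shares is not independent evidence. No list had 80% of its genes named, so list medians are not given, and loci without a symbol appear by code alone.

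In jasmonate synthesis only OPCL1, a peroxisomal CoA ligase, was measured, at 518.3 in Col-0 and 511.0 in csb3. The lipase gene DGL was below 50 on both arrays, and the other 15 of 17 genes had no named probe set. The targets through which ORA47 is known to act were thus hardly covered. In jasmonate turnover, 3 of 5 named genes were higher in csb3 and none was lower. By the annotation alone it was 2 of 4, where 3.58% of all probe sets named that way were higher. Nothing is read from counts of this size. CYP94B3, which hydroxylates the active jasmonate conjugate, had 3.4 in Col-0 against 117.7 in csb3, higher by at least 2.35-fold. It is named only through the study's list. JRG21, annotated as a jasmonate-regulated gene, had 78.2 and 202.6, a 2.59-fold difference. AT2G38240 had 87.1 and 178.8, a 2.05-fold difference, and AT5G05600 had 159.0 and 296.6, short of 2-fold.

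On the MYC side, 3 of 15 listed genes had a named probe set, and MYC2, VSP1 and VSP2 were not among them. Neither MYC3 nor MYC4 reached 2-fold. MYC3 had 164.1 in Col-0 against 227.6 in csb3, and MYC4 had 509.9 and 357.9. NAC019, a NAC factor that acts after MYC2, was 3.36-fold higher in csb3 (68.7 and 230.5) and is named only through the study's list.

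On the ethylene side, neither of the 2 named signalling genes reached 2-fold. EIN3, the transcription factor that carries the ethylene signal and acts upstream of ORA59, had 976.4 in Col-0 and 1232.4 in csb3, which differ 1.26-fold. RTE1, which acts with the receptor ETR1, had 179.1 and 162.1. Of ethylene synthesis, ACS2, an ACC synthase, had 7.8 and 106.1, at least 2.12-fold higher in csb3. AT1G12010, which the study describes as a putative ACC oxidase, had 97.8 and 8.3, at least 1.96-fold lower. ACS2 is named only through the study's list. Rap2.6L, an ERF-type factor named only through the study's list, had 8.0 in Col-0 against 171.4 in csb3, higher by at least 3.43-fold.

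The DREB-type AP2 factors, the larger group to which ORA47 is related, held 2 of the 3 lower calls. TINY2 had 278.1 in Col-0 and 54.7 in csb3, which differ 5.08-fold. AT1G01250, described by the study as an AP2-domain factor, had 162.1 and 21.8, at least 3.24-fold lower. Of the other 4 named loci of this list, 3 were below 50 on both arrays, and AT1G19210 had 63.8 and 29.6. With 6 of 15 named, 2 were called lower and none higher in csb3. Over all probe sets named by the annotation the shares were 2.64% lower and 3.58% higher. TINY2 and AT1G01250 are named by the annotation and also stand in the study's list.

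The named defensins differed in direction. PDF1.4 had 148.9 in Col-0 and 715.4 in csb3, which differ 4.80-fold, and LCR69 (PDF2.2) had 154.2 and 934.9, a 6.06-fold difference, both higher in csb3 and opposite to PDF1.2A and PDF1.2B. LCR68 (PDF2.3) had 824.2 and 622.5, short of 2-fold. A search of symbols and synonyms found 13 defensin-like genes named by the annotation, PDF1.2A and PDF1.2B included. Of these, 2 were higher (PDF1.4 and LCR69), 1 neither and 8 below 50 on both arrays, and the 2 lower ones were PDF1.2A and PDF1.2B themselves. Over all probe sets named by the annotation the shares were 3.58% higher and 2.64% lower, and nothing is read from a count of this size. THI2.2, another thionin gene, had 351.8 and 246.2, short of 2-fold. AT1G66100, which stands in the list of defensins and thionins, had 9991.9 and 3016.2, a 3.31-fold difference, lower in csb3.

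Of 4 listed genes for other secreted proteins, 3 were named, and these 3 were higher in csb3. By the annotation alone it was 1 of 1, where 3.58% of all probe sets named that way were higher. Counts of this size are not interpreted. OSM34, an osmotin-like protein, had 2.0 in Col-0 against 534.2 in csb3, higher by at least 10.7-fold. The basic chitinase HCHIB (PR3), a marker of ethylene and jasmonate responses, had 14.4 and 180.0, at least 3.60-fold higher. PR5, which responds mainly to salicylic acid, had 432.3 and 1358.8, a 3.14-fold difference. HCHIB and PR5 are named only through the study's list, so that they differed was fixed by the way they were named. GRX480, a glutaredoxin induced by salicylic acid that can repress PDF1.2, had 124.9 and 258.4, a 2.07-fold difference, and was the one named of 8 cross-talk genes.

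**Figure D3:**
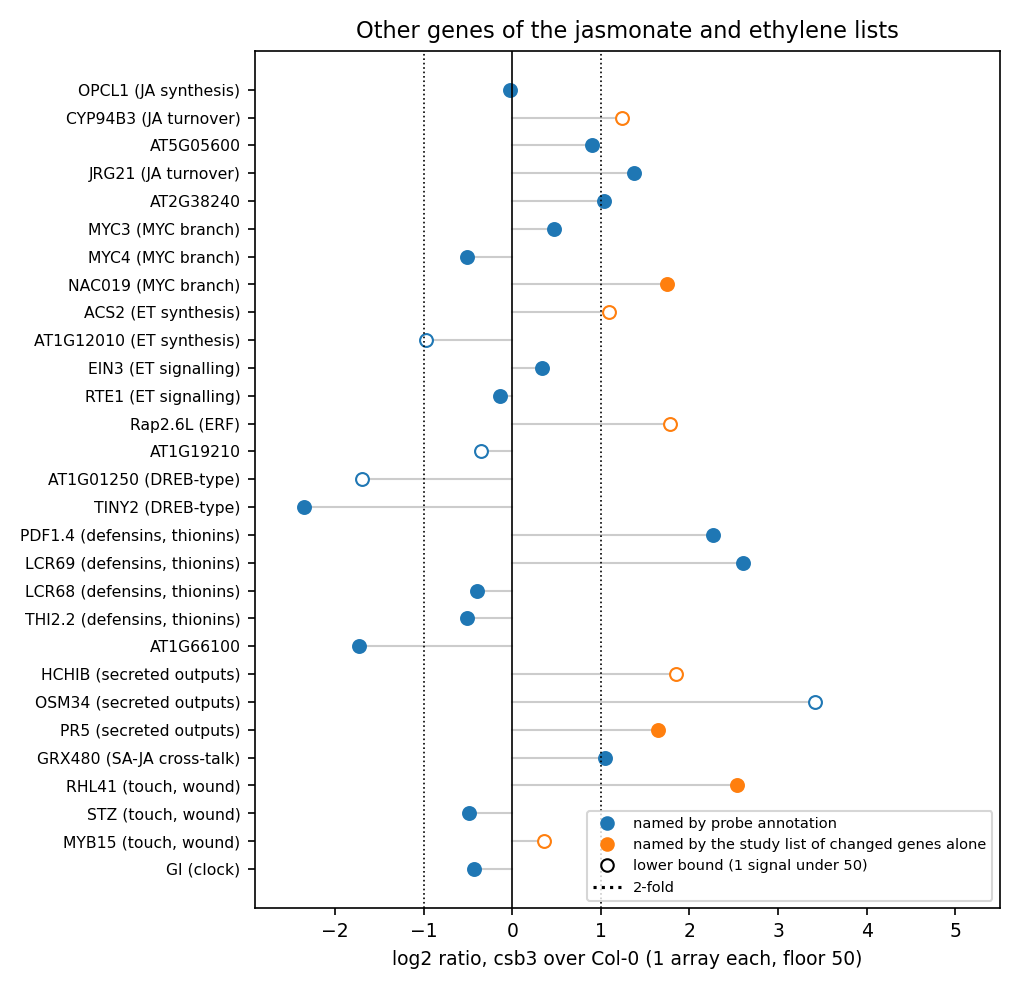
Log2 ratio of csb3 to Col-0 for the 29 listed genes with a signal of 50 or more on at least 1 array. Blue marks genes named by the probe annotation and orange those named only by the study's list of changed genes. Open circles are lower bounds and dotted lines mark 2-fold. TINY2, AT1G01250 and AT1G66100 lie beyond 2-fold on the lower side, and OSM34, LCR69 and RHL41 have the highest ratios.

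Handling, time of day and organ content can each change jasmonate genes, and values that bear on them were few. Of the touch and wound list, 3 of 8 genes were named. RHL41 (ZAT12) had 107.7 in Col-0 and 627.3 in csb3, which differ 5.82-fold, STZ (ZAT10) had 755.6 and 538.5, and MYB15 had 5.6 and 64.2. RHL41 and MYB15 are named only through the study's list of changed genes. Of 8 clock genes only GI was named, with 288.0 and 214.4. None of 8 flower, 8 leaf or 4 seed markers had a named probe set, so the whole-plant label could not be checked for these organs. Of 7 root markers, 4 were named, and their summed signal was 85.0 in Col-0 against 1517.6 in csb3. All 4 Col-0 signals lay below 50, so the sums are not read as a measure of root content. PYK10 made up most of the csb3 sum with 27.8 and 1219.8, at least 24.4-fold higher in csb3. NAI2 had 26.5 and 241.1, at least 4.82-fold higher, and neither of the root hair expansins EXPA7 and EXPA18 reached 50 on an array. The 18 spike-in probe sets were all lower in csb3 (median log2 ratio -0.98). As a sign of RNA quality the ratio of 3′ to 5′ signal was read from 6 pairs of control probe sets. For actin it was 2.06 in Col-0 against 4.91 in csb3, and 1.74 against 2.22 in the second pair. For GAPDH it was 1.29 against 1.4, and 0.871 against 1.28. For ubiquitin it was lower in csb3, at 2.66 against 1.98, and 1.64 against 1.4. The part of these differences in the values of the 7 genes was not tested.

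Scaling on the spike-in controls brought the 4 measured genes nearest to 0. The log2 ratios were then -2.02 for ORA47, -1.90 for PDF1.2A, -1.06 for PDF1.2B and -0.81 for JAZ7, which misses 2-fold. ORA47, PDF1.2A and PDF1.2B passed 2-fold on the lower side under each of the 9 settings tried. The floors of 20 and 100 and the lack of a floor could not move PDF1.2A or PDF1.2B, whose signals all exceed 100. Their ratios stayed at -2.88 and -2.04 there. None of the 7 genes took the opposite sign under any of the settings, and nothing is read from this. A changed floor or an added constant cannot reverse a sign. The spike-in shift, -0.981 in log2, was smaller in size than the ratios of the 4 measured genes. THI2.1 was below 0 under only 3 of the 9 settings and JMT under 8, and ORA59 was above 0 under 8. Under the rest they stood at 0, held there by the floor.

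**Figure D4:**
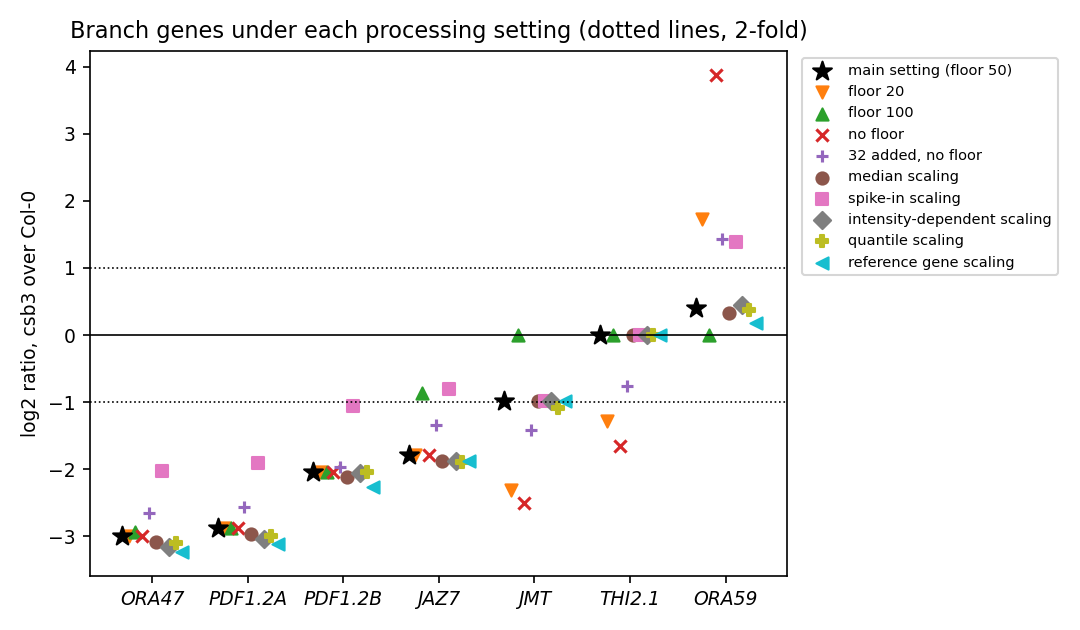
Log2 ratio of csb3 to Col-0 for the 7 genes under the main setting (stars) and 9 other settings, with dotted lines at 2-fold. The points of ORA47, PDF1.2A and PDF1.2B all lie below the lower dotted line, and those of ORA59 spread from 0 to 3.88 with the floor.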

How the data were processed

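Total RNA of whole Col-0 and csb3 plants was labelled with biotin and hybridised to ATH1 arrays. The deposited intensity values are MAS5 signals on a linear scale, which the authors scaled on each array to a mean of 250 (leaving out 2% of probe sets at either end). The study's methods also describe SAM on triplicate samples, which 1 array per genotype does not allow. Ratios were computed in Python 3.11.15 (pandas 2.3.3, NumPy 2.4.6), intensity-dependent scaling used statsmodels 0.14.6, and figures were made in matplotlib 3.10.9. The number of arrays limits the precision, and 8403 probe sets were below 50 on both.

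Probe sets were named through the platform annotation (13513 with 1 gene, 503 with several), updated to RefSeq symbols of the TAIR10.1 assembly, and 219 others through gene codes in the study's list of changed genes. A gene with several probe sets was read from the brightest. The sources used here name no genome build for the array, and coordinates are left out. The genes and lists were chosen with earlier results of these data known. Named are the 7 genes, every gene of the pathway lists at 2-fold and the brightest other genes of these lists, up to 4 per list, with the root markers added. Of the families to be found by symbol, AP2/ERF and TIFY/JAZ gave 0 probe sets, and the thionins were THI2.1 and THI2.2. The symbol search missed AP2 factors that the annotation names, such as ORA47 and TINY2. The 0 for AP2/ERF is therefore no measure of coverage. The counting was checked on Col-0 signals with 4-fold changes planted in bright probe sets and no noise. That check does not reach calls near the floor or variation between arrays. Alternatives were other floors, an added constant, other scalings, a 4-fold rule and names from the annotation alone.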

Additional observations from a re-analysis of the deposited data

How the results depend on the processing

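No paired analysis was possible because there was only 1 array of either genotype. With a floor of 20, 1497 probe sets were higher and 1291 lower, with 1 of the 7 genes higher and 6 lower. The log2 ratios were then 1.73 for ORA59, -2.31 for JMT and -1.28 for THI2.1, each past 2-fold. Without a floor 2698 were higher and 3559 lower, with 1 of the 7 higher and 6 lower. The values were 3.88 for ORA59, -2.50 for JMT and -1.65 for THI2.1. With 32 added to each signal, 927 probe sets were higher and 525 lower, with 1 of the 7 higher and 5 lower. ORA59 was then at 1.43 and JMT at -1.41. With a floor of 100 JAZ7 was at -0.87. Spike-in scaling gave 7671 higher and 80 lower, with 1 of the 7 higher and 3 lower. It put JAZ7 at -0.81 and ORA59 at 1.39. Reference gene scaling gave 660 higher and 1174 lower, and quantile scaling gave -1.08 for JMT. At 4-fold 202 probe sets were higher and 60 lower. With names from the annotation alone, 6 listed genes in place of 13 were higher. Dim signals limit ORA59, JMT and THI2.1 most, since each has a signal below 50 on at least 1 array and its ratio is then set by the floor.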

Other observations

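Within 4 genes on either side of the 7, in the RefSeq order of the TAIR10.1 assembly, 27 neighbours had a named probe set. Of these, 2 were higher in csb3, 2 lower, 10 neither and 13 below 50 on both arrays. Over all probe sets 4.56% were higher and 2.74% lower, and counts as small as these are not set apart from those shares. ALDH10A8, an aldehyde dehydrogenase gene directly beside ORA47, had 1634.9 in Col-0 and 1589.3 in csb3, while AT1G74940, on the other side of ORA47 and 2 places away, had 160.3 and 66.3, a 2.42-fold difference. AT2G34620, 2 places from JAZ7, had 1137.2 and 376.6, a 3.02-fold difference, and AT2G34590, next to JAZ7, had 1116.8 and 867.0. PDF1.4, higher in csb3, lies 3 places from JMT, which had no call at 2-fold, and AT1G19650, next to JMT, had 139.4 and 136.4. These neighbours were chosen after the values of the 7 genes were known, and no test was made.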
